A study of Mus musculus with 6 samples.

Results

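The 10 genes described here encode the proteins that carry a cell through G1 phase: the D cyclins *Ccnd1*, *Ccnd2* and *Ccnd3*, the E cyclins *Ccne1* and *Ccne2*, the kinases *Cdk4* and *Cdk6*, and the inhibitors *Cdkn1a*, *Cdkn1b* and *Cdkn2c*. They were taken as a fixed list and found by symbol among the 23366 genes of each count table. All 10 had a row, and 9 passed the filter on low counts that 12501 genes passed. The samples were 6 RNA-sequencing libraries, each from 500 EpCAM-positive cells of the embryonic mouse small intestine. At E13.5, 3 of them were made from embryos of genotype Shh-cre-egfp:Tcf7l1 lox/lox (mutant) and 3 from wild type embryos. EpCAM is a surface protein of epithelial cells, and *Tcf7l1* encodes a transcription factor of the WNT pathway that mostly acts as a repressor. The comparison asks which genes change in the epithelium when *Tcf7l1* is inactivated. Cre was made from the *Shh* locus, which is active in the gut epithelium, and only mutants carried it, so Cre, the altered *Shh* allele and the loss of *Tcf7l1* cannot be told apart.

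In G1, D cyclins pair with CDK4 or CDK6 and begin to phosphorylate the retinoblastoma protein, which releases E2F transcription factors. Cyclin E with CDK2 then completes this step and starts DNA replication. The CIP/KIP inhibitors p21 (*Cdkn1a*), p27 (*Cdkn1b*) and p57 (*Cdkn1c*) bind cyclin and CDK complexes, and the INK4 inhibitors, among them p18 (*Cdkn2c*) and p15 (*Cdkn2b*), bind CDK4 and CDK6 alone. D cyclin genes are known for their response to mitogens and WNT signals, and the intestinal epithelium of the embryo divides throughout its length.

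Total counts were 18216537 to 20397278 per library, and 14486 to 14853 genes were detected. *Tcf7l1* itself lay at 364 to 476 normalized counts in wild type and at 33.0 to 73.0 in mutant libraries, a log2 fold change of -3.16 ± 0.26 (SE). *Shh* lay at 481 ± 65.8 in wild type and 198 ± 22.6 in mutant libraries (SD, n = 3; log2 fold change -1.28). The Y-linked gene *Ddx3y* was at 0 in every mutant library and at 1746 to 2114 in wild type, while *Xist* was at 0 in every wild type library and at 237 to 452 in mutants, so sex and genotype cannot be told apart. The 6 epithelial markers were all detected and summed to 148614 to 163588 normalized counts, but they differed between genotypes: *Cdh1* (log2 fold change -0.57), *Krt18* (-0.54), *Krt19* (-0.49) and *Krt8* (-0.32) fell and *Cldn7* (0.24) rose at an adjusted p under 0.01, and *Epcam* was at 0.25 (adjusted p = 0.013). The 3 mesothelial markers summed to 424 to 820, of which *Msln* fell from 314 ± 86.8 to 64.6 ± 43.7 (SD, n = 3; adjusted p = 3.2e-04), *Upk3b* was at 374 ± 57.3 and 488 ± 116 (adjusted p = 0.12) and *Wt1* was at 0 in all but 1 library. The sums were 152 to 593 for 10 mesenchymal and smooth muscle markers, 195 to 278 for 6 neural crest markers and 0 to 20.7 for 4 endothelial markers, of which 3 were at 0 throughout. The 8 blood markers summed to 21.9 to 29.8 in wild type and to 4.14 to 6.64 in mutant libraries, with 6 at 0 in all. The part of these markers in the results was not tested. In such bulk samples, fewer cells of a type and less RNA per cell cannot be told apart.

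The 10 genes spanned a wide range of levels. Per transcript length (RPKM, counts scaled by library size and by the longest transcript), the mean over the 6 libraries was 746 for *Cdk4*, 109 for *Ccnd3*, 92.2 for *Ccnd2*, 67.4 for *Ccne1*, 50.5 for *Cdkn1a*, 17.3 for *Ccne2*, 8.01 for *Ccnd1*, 1.76 for *Cdk6*, 0.208 for *Cdkn1b* and 0.163 for *Cdkn2c*. *Cdk4* ranked 61 among 11874 tested genes with a known length, whereas *Cdkn1b* ranked 11517. Neighbours in this order did not overlap between libraries of 1 genotype, with these exceptions: *Ccnd3* (104 to 109 RPKM) and *Ccnd2* (96.4 to 107) overlapped in mutant but not in wild type libraries, and *Cdkn1b* and *Cdkn2c* overlapped in both.

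**Figure D1:**
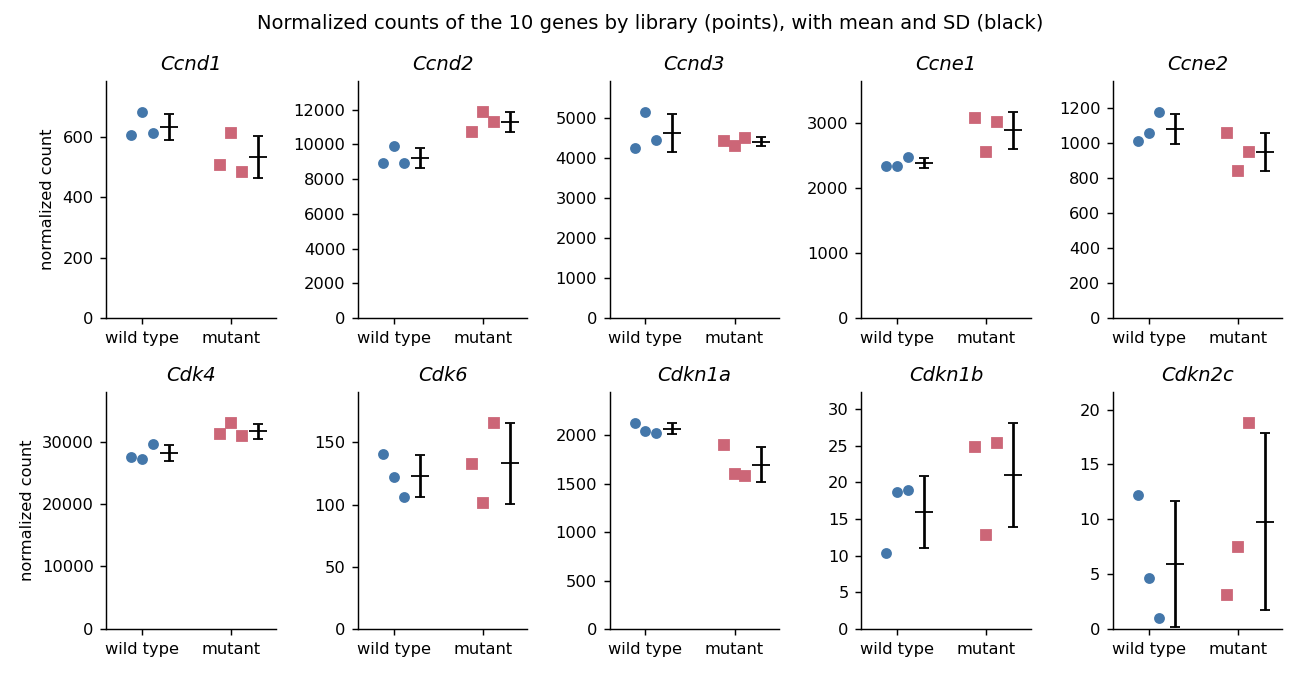
Normalized counts (y axes, each starting at 0, with its own scale) of the 10 genes in 3 wild type libraries (blue circles) and 3 mutant libraries (red squares), with mean and SD in black. The groups do not overlap for *Ccnd2*, *Ccne1* and *Cdk4*, where the mutant is higher, and for *Cdkn1a*, where it is lower.

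*Ccnd2* was the member with the smallest p, and the only one past an adjusted p of 0.01. Cyclin D2 is encoded on the minus strand (ENSMUSG00000000184, mm9 chr6:127075797-127101066). Its normalized counts were 8911, 9894 and 8906 in wild type and 10726, 11865 and 11278 in mutant libraries. Every mutant library lay above every wild type library. The fold change was 1.22 (95% interval 1.10 to 1.35), a log2 fold change of 0.29 ± 0.07 (SE) with an adjusted p of 0.00625 in edgeR's quasi-likelihood test, below the fold threshold of 0.5 on the log2 scale. With library size as the only scaling, which moved the median log2 fold change of all genes from -0.04 to -0.15, the value for *Ccnd2* was 0.18 (adjusted p = 0.053). The adjusted p was also above 0.01 without wild type library 1 (0.0374) or mutant library 1 (0.0159), 2 (0.0430) or 3 (0.0289).

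*Ccnd1*, which encodes cyclin D1 (ENSMUSG00000070348, mm9 chr7:152115836-152125774, minus strand), lay far below the other D cyclins. Wild type libraries held 606, 683 and 614 normalized counts and mutant libraries 507, 614 and 483. The groups overlapped, and the log2 fold change was -0.25 ± 0.13 (SE; 95% interval -0.53 to 0.04; adjusted p = 0.18). *Oraov1* on the opposite strand overlaps 21.3% of its exon bases, and since the strand setting of the counting is not stated, reads of the pair cannot be told apart there.

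*Ccnd3*, which encodes cyclin D3 (ENSMUSG00000034165, mm9 chr17:47642000-47736632, plus strand), had the highest level per length among the D cyclins. Its counts were 4238, 5143 and 4443 in wild type and 4428, 4294 and 4496 in mutant libraries. All mutant libraries fell inside the wild type range (log2 fold change -0.06, 95% interval -0.23 to 0.10, adjusted p = 0.58), and without wild type library 2 the value was 0.02. A stretch on mm9 chr4:138900315-138902142 matches 86.7% of its longest transcript at 95% identity or more. Since only uniquely mapping reads were counted, the level of *Ccnd3* is uncertain. On the opposite strand *Bysl* overlaps 15.7% of its exon bases.

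*Ccnd2* stood in a different proportion to each of the other D cyclins in the libraries of each genotype. The ratio of raw *Ccnd2* to *Ccnd1* counts was 14.7, 14.5 and 14.5 in wild type and 21.1, 19.3 and 23.3 in mutant libraries. That of *Ccnd2* to *Ccnd3* was 2.10, 1.92 and 2.0 in wild type and 2.42, 2.76 and 2.51 in mutants. Neither ratio depends on how libraries are scaled, and in neither did the groups overlap. They are given without a test, since the pairs were chosen with the values known. For the remaining pair, raw *Ccnd1* and *Ccnd3* counts were 646 and 4519, 733 and 5517, and 646 and 4675 in wild type libraries. In mutant libraries they were 490 and 4276, 577 and 4032, and 437 and 4064, and the ratios of this pair overlapped between genotypes. Of the summed D cyclin RPKM, *Ccnd2* took 40.9 ± 1.01% in wild type and 47.0 ± 1.48% in mutants, *Ccnd3* 54.9 ± 1.09% and 49.6 ± 1.82%, and *Ccnd1* 4.28 ± 0.07% and 3.40 ± 0.40% (SD, n = 3). The sum itself was 203 ± 17.1 in wild type and 216 ± 4.39 in mutants, and the groups overlapped.

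**Figure D2:**
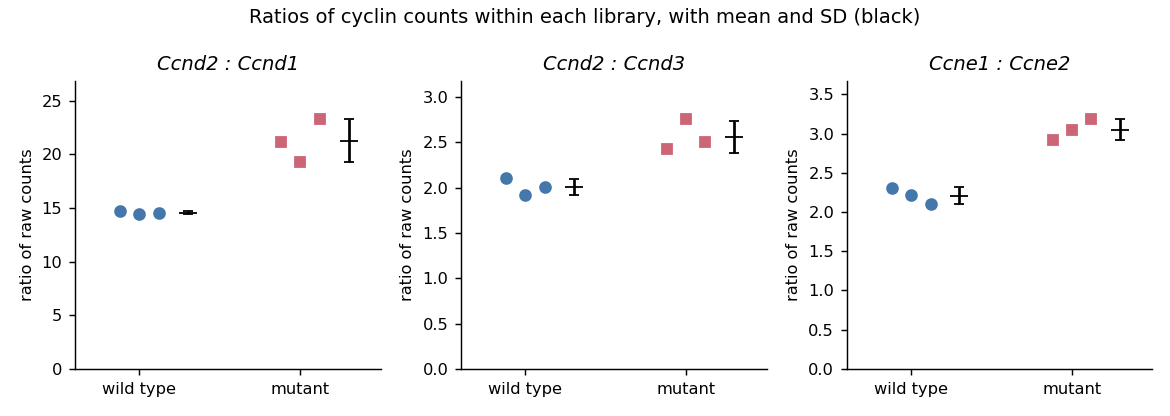
Ratio of the raw counts of a pair of cyclin genes in the same library (y axes, starting at 0) in 3 wild type (blue circles) and 3 mutant libraries (red squares), with mean and SD in black. In each of the 3 panels all mutant libraries lie above all wild type libraries, with mean ratios of 21.3 against 14.6, 2.56 against 2.01 and 3.05 against 2.21. The pairs were chosen with the values known, so the separation is not a test, and other gene pairs were not computed for comparison.

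The E cyclins, partners of CDK2, had unlike values too. *Ccne1* (ENSMUSG00000002068, mm9 chr7:38883003-38892553, minus strand) was at 2341, 2333 and 2472 normalized counts in wild type and at 3070, 2555 and 3018 in mutant libraries. The mutant libraries all lay higher, by a fold of 1.21 (95% interval of the log2 fold change 0.10 to 0.45). The adjusted p of 0.0238 missed 0.01. DESeq2 gave 0.0070, the 1 of 13 alternatives in which *Ccne1* passed 0.01. With library size as the only scaling the log2 fold change was 0.17 and the adjusted p 0.130. With each library left out, the adjusted p ran from 0.0113 (without wild type library 3) to 0.123 (without mutant library 1). *Ccne2* (ENSMUSG00000028212, mm9 chr4:11118498-11131926, plus strand) was at 1013, 1054 and 1177 in wild type and at 1054, 838 and 946 in mutants. Those groups overlapped (log2 fold change -0.19, 95% interval -0.43 to 0.05, adjusted p = 0.219), and *Ints8* on the opposite strand shares 17.4% of the exon bases of *Ccne2*. The ratio of *Ccne1* to *Ccne2* counts was 2.31, 2.21 and 2.10 in wild type and 2.91, 3.05 and 3.19 in mutant libraries. This pair, too, was chosen with the values known. Per length, *Ccne1* made up 76.8 ± 0.85% of both E cyclins in wild type and 82.1 ± 0.67% in mutants.

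*Cdk4* (ENSMUSG00000006728, mm9 chr10:126500590-126504976, plus strand) encodes the main partner of the D cyclins by level in these cells. Its normalized counts were 27601, 27246 and 29613 in wild type and 31133, 33019 and 30823 in mutant libraries. The mutant libraries all lay above the wild type ones, while the fold was 1.12 and the adjusted p 0.0511 (log2 fold change 0.17 ± 0.06 SE, 95% interval 0.04 to 0.30). Without wild type library 3 the adjusted p was 0.0014 with a log2 fold change of 0.22, and with library size as the only scaling the value was 0.06. *Tspan31* lies opposite 18.6% of its exon bases. *Cdk6* (ENSMUSG00000040274, mm9 chr5:3343893-3523218, plus strand), which encodes the other D cyclin kinase, was at 141, 122 and 106 in wild type and 133, 101 and 166 in mutants. Its groups overlapped widely (log2 fold change 0.11, 95% interval -0.42 to 0.65), and without mutant library 3 the value was -0.07. *Cdk4* supplied 99.8% of the summed RPKM of both kinases in either genotype.

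Among the CIP/KIP inhibitors, *Cdkn1a*, a p53 target that encodes p21 (ENSMUSG00000023067, mm9 chr17:29227924-29237667, plus strand), was at 2132, 2044 and 2030 normalized counts in wild type and at 1906, 1604 and 1580 in mutant libraries. All mutant libraries lay lower, at a fold of 0.820, and the adjusted p of 0.0289 missed 0.01 (log2 fold change -0.29, 95% interval -0.48 to -0.09). With library size as the only scaling, which moved the median of all genes to -0.15, the log2 fold change was -0.39 and the adjusted p 0.0067. This was the 1 of 13 alternatives in which *Cdkn1a* passed 0.01. The adjusted p was 0.105 without wild type library 1, 0.112 without mutant library 2 and 0.133 without mutant library 3. *Cdkn1b* (ENSMUSG00000003031, mm9 chr6:134870419-134875531, plus strand) was near the floor of detection, at 10.3, 18.6 and 19.0 normalized counts in wild type and 24.9, 12.8 and 25.4 in mutants. It had 51 counts over the 3 wild type libraries (exact Poisson 95% interval 38.0 to 67.1) and 59 over the 3 mutant libraries (44.9 to 76.1), and the intervals, which cover counting error only, overlapped. Its log2 fold change of 0.39 had a 95% interval from -0.88 to 1.66, so that no difference was detectable at this depth. *Cdkn1c*, which encodes p57 and stands outside the 10 genes, was the most abundant of the CIP/KIP genes, at 183 RPKM in wild type and 167 in mutants (log2 fold change -0.14, adjusted p = 0.175).

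*Cdkn2c*, an INK4 gene (ENSMUSG00000028551, mm9 chr4:109333481-109339794, minus strand), was the member that the filter on low counts removed. Its counts summed to 19 in wild type (11.4 to 29.7) and 27 in mutant libraries (17.8 to 39.3). The normalized counts were 12.2, 4.66 and 0.95 in wild type and 3.11, 7.45 and 18.8 in mutants, which overlapped. The INK4 gene with the higher level was *Cdkn2b*, not among the 10 genes, at 493, 556 and 511 normalized counts in wild type and 361, 325 and 355 in mutants. It fell by 0.58 on the log2 scale (adjusted p = 0.00603), a call that was lost when any library other than wild type 3 was left out (adjusted p of 0.0168 to 0.0303). *Cdkn2d* was at 29.2 ± 10.5 in wild type and 32.4 ± 5.94 in mutants (SD, n = 3), and *Cdkn2a* had 7 counts over all wild type libraries (2.81 to 14.4) and 0 in the mutants (0 to 3.69).

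**Figure D3:**
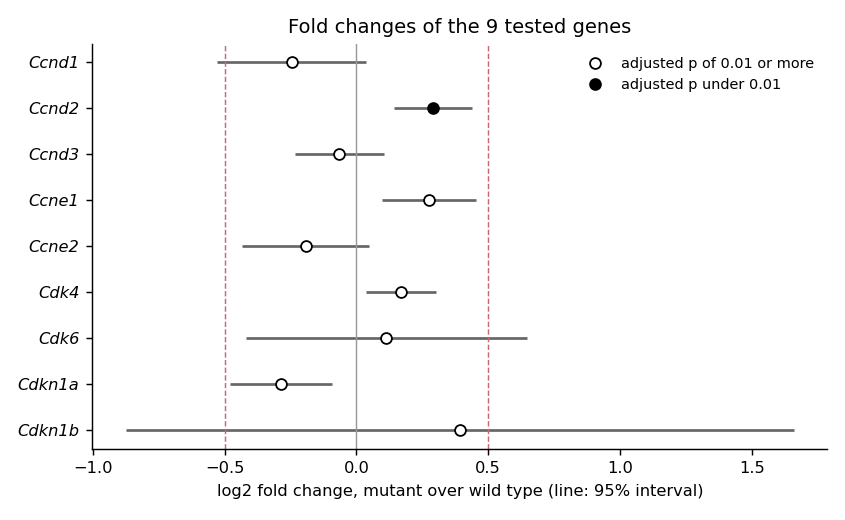
Log2 fold change, mutant over wild type (x axis), of the 9 tested genes, with 95% intervals as lines and dashed lines at -0.5 and 0.5, the fold threshold. *Ccnd2* alone is filled (adjusted p of 0.00625), and all 9 values lie between -0.29 and 0.39.

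Read together, the 9 tested genes all had log2 fold changes under 0.5 in size. The 95% intervals of *Ccnd1*, *Cdk6* and *Cdkn1b* reached past that size. At thresholds of 0.01 on the adjusted p, 0.5 on the size of the log2 fold change and 50 on the mean level in normalized counts, edgeR called 0 of the 9, against 8.62% of all tested genes. At an unadjusted p under 0.05 there were 4, *Ccnd2*, *Ccne1*, *Cdkn1a* and *Cdk4*, against 40.3% of all tested genes, and DESeq2 also called 0 of 9. Without the fold and level thresholds 1 of 9 passed, *Ccnd2*, against 14.9% of all genes in either direction and 7.32% with the mutant higher. The groups did not overlap for 4 of 9, against 43.0% of all tested genes. With 9 genes these shares are close to the background. Of the 9, 5 were higher and 4 lower in mutants. Their median log2 fold change was 0.11 beside -0.04 for all genes, and 0.01 beside -0.15 with library size as the only scaling. It was -0.07 without mutant library 3, 0.03 without wild type library 3 and 0.01 with the filter at a mean of 50 counts, which removed *Cdkn1b*.

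Promoter sequence was examined for the members whose libraries did not overlap, because TCF7L1 binds DNA. RefSeq windows from 250 bases before to 50 after a start site (GRCm38.p6) were found for 7 of the 10 genes, 10 windows in all, and not for *Ccnd1*, *Ccnd2* or *Ccne2*. The windows of *Cdk4* (chr10:127063285-127063584, plus strand) and *Ccne1* (chr7:38107441-38107740, minus strand), and of the *Cdkn1a* start with GC boxes (chr17:29093519-29093818, plus strand), are shown 5′ to 3′ with matches to the searched motifs in capitals.
Cdk4: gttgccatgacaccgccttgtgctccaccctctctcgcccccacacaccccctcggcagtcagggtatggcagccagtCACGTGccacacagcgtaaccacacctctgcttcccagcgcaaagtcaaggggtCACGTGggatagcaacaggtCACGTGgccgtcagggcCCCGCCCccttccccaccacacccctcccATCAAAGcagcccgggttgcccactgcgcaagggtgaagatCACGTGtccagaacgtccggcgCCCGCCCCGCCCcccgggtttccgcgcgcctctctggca
Ccne1: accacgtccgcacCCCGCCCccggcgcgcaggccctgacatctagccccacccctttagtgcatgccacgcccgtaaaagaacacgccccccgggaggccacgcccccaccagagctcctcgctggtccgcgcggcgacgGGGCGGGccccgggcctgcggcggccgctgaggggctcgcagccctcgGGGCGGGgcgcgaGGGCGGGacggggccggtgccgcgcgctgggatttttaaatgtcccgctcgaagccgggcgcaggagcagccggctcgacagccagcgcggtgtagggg
Cdkn1a: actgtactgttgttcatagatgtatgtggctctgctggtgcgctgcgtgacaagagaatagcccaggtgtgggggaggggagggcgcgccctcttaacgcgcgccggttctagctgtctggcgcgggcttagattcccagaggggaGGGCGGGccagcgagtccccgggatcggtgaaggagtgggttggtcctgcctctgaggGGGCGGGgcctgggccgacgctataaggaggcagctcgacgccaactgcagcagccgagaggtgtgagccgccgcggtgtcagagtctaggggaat
The motifs, searched on both strands, were the TCF motif CTTTGAT, the E2F motifs TTTCGCGC and TTTGGCGC, the E-box CACGTG, which MYC and related factors bind, and the GC box GGGCGGG. *Cdk4* held the TCF letters once, on the minus strand 52 bases before the start, and was the one of 10 member windows to do so, against 3.73% of all 32851 windows. It also held 4 E-boxes, at 172, 118, 98 and 11 bases before the start. An E-box was in 3 of 10 member windows and 7.15% of all, and at least 4 were in 0.0244% of all, a count chosen after *Cdk4* was seen. *Ccne1* held 4 GC boxes and the *Cdkn1a* window shown held 2, a motif found in 6 of 10 member windows and 25.6% of all. The other *Cdkn1a* window (chr17:29090729-29091028, plus strand) held no match to any searched motif. In *Cdk4* a pair of its 3 GC boxes overlap each other. No member window held the letters of either E2F motif, which 0.323% and 0.514% of all windows held. A match describes the letters and is not evidence of binding.

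The wider G1 machinery was followed in lists of other genes. Of all tested genes, 14.9% passed an adjusted p of 0.01 in either direction and 7.32% with the mutant higher. Of 24 other G1 regulators, 23 had a row and 22 were tested. At an adjusted p under 0.01, 2 were higher in mutants, *Ccnh* (log2 fold change 0.35) and *Cks1b* (0.36), and 3 were lower. With library size as the only scaling or with the gene-length correction, 0 were higher and 3 lower. The lower ones were *Mycn*, *Ambra1* and *Cdkn2b*, all past the fold threshold. *Mycn*, a MYC family transcription factor, went from 1965 ± 388 to 752 ± 161 normalized counts (SD, n = 3; log2 fold change -1.39, adjusted p = 1.1e-05). *Ambra1*, an adaptor through which a ubiquitin ligase degrades D cyclins, went from 147 ± 11.0 to 65.2 ± 15.0 (-1.17, adjusted p = 0.0046), a call lost without wild type library 1 (0.0170) or 2 (0.0242) or mutant library 1 (0.0111) or 2 (0.0230). *Myc* (0.13, adjusted p = 0.25), *Trp53* (0.06, 0.52) and *Cdk2* (-0.07, 0.63) did not pass. *Rb1* was at 322 ± 8.08 in wild type and 238 ± 13.1 in mutants, without overlap (-0.43, adjusted p = 0.056), and *Rbl2*, which encodes the related pocket protein p130 of the DREAM complex, was at 241 ± 43.8 and 157 ± 34.2, also without overlap (-0.62, adjusted p = 0.045). The list's higher and lower counts were 0 and 1 without wild type library 1 or 2 or mutant library 1 or 2, 0 and 2 without mutant library 3, and 3 and 3 without wild type library 3.

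Genes that act after G1 were read in the same way. The next list held S, G2 and M cyclins, CDK1, genes that act with or on it, and the proliferation marker *Mki67*. Of its 12 tested genes, 7 rose and 0 fell at an adjusted p under 0.01. The 7 included *Mki67* (log2 fold change 0.36), *Wee1* (0.40) and *Ccnf* (0.43). The share of all tested genes that rose was 7.32%. The list's median log2 fold change was 0.36. *Cdk1*, the kinase of mitotic entry, went from 4754 ± 733 to 7271 ± 609 normalized counts (0.61, adjusted p = 3.1e-04), and its partner *Ccnb1* from 6860 ± 712 to 9980 ± 225 (0.54, adjusted p = 1.1e-04). *Cks2*, a CDK subunit, went from 705 ± 126 to 1125 ± 60.8 (0.68), and *Ccna2* from 5150 ± 386 to 6645 ± 288 (0.37, adjusted p = 0.0019). The count of 7 was 4 without wild type library 1 or mutant library 1 or 2. *Ccnb1* was under the fold threshold with library size as the only scaling (0.44) and without wild type library 1 (0.49), and *Cks2* with the gene-length correction (0.37).

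Of 21 E2F targets of S phase entry, 3 rose (*Tk1*, *Gmnn*, *Pcna*) and 3 fell (*Mcm2*, *Mcm3*, *Mcm5*) at an adjusted p under 0.01. The share of all tested genes in either direction was 14.9%, and the list's median log2 fold change was 0.00. The counts that rose and fell were 2 and 0 with the gene-length correction, 1 and 3 with library size as the only scaling, 4 and 1 with RLE normalization and 4 and 3 with DESeq2. *Tk1*, thymidine kinase, went from 2716 ± 357 to 4056 ± 274 (0.58, adjusted p = 3.3e-04), and *Mcm2*, a subunit of the replicative helicase, from 4793 ± 762 to 3333 ± 474 (-0.52, adjusted p = 0.0032). The numbers of E2F targets that rose and fell were 1 and 0 without wild type library 1 or 2 or mutant library 2, 1 and 1 without mutant library 1, 2 and 1 without mutant library 3, and 8 and 3 without wild type library 3. *Tk1* was under the fold threshold with library size as the only scaling (0.48) or the gene-length correction (0.42). With that correction *Mcm2* was at -0.43 with an adjusted p of 0.0114. Its call was also lost without wild type library 1 (adjusted p = 0.0252) or 2 (0.0170) or mutant library 2 (0.0210). Of 16 E2F and DREAM complex genes, 0 passed an adjusted p of 0.01 in edgeR or DESeq2 and 0 had an unadjusted p under 0.05 in edgeR, against 40.3% of all tested genes (*Rb1*, *Rbl1* and *Rbl2* were counted with the G1 regulators). *Lin54* had the smallest p (0.31, adjusted p = 0.17), with *E2f1* at -0.23 (0.41). Of 16 tested p53 targets, 1 rose and 1 fell, against 14.9% of all tested genes in either direction. The apoptosis gene *Pmaip1* rose (0.85, adjusted p = 2.6e-06), and *Trp53inp1* fell (-1.31, adjusted p = 2.6e-04). The count that fell was 3 with DESeq2 or the filter at a mean of 50 counts, 2 with no filter or without wild type library 3, and 4 with library size as the only scaling.

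**Figure D4:**
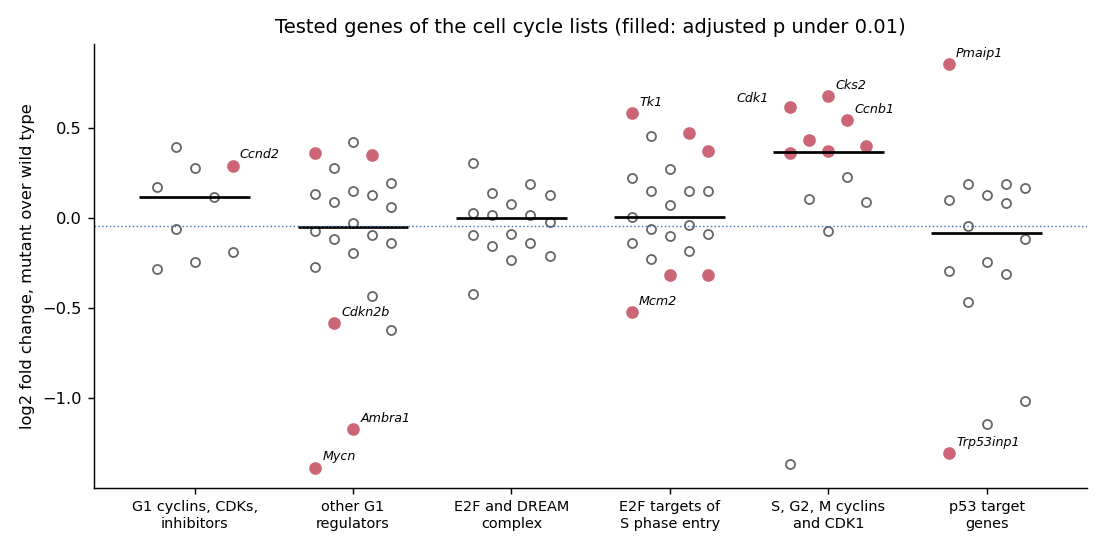
Log2 fold change, mutant over wild type (y axis), of each tested gene in 6 lists (x axis), with filled points for an adjusted p under 0.01, black bars for each list's median and a dotted line for the median of all tested genes (-0.04). The S, G2 and M list has the median farthest from that line (0.36), and genes past the fold threshold as well are named, with *Ccnd2* for the G1 genes.

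Fold changes also followed transcript length. Over 10 bins of about equal size by length, the median log2 fold change went from 0.22 in the bin of the shortest genes (up to 1228 bases) to -0.21 in bin 8 (4017 to 4751 bases). *Ccnd2*, with 5701 bases, stood at 0.29 in a bin whose median was -0.17, and with a length correction it was 0.39 (adjusted p = 4.3e-04). *Ccne1*, *Cdk4* and *Cdkn1a* share a bin with a median of 0.04. *Ccnd1* lies in one with a median of -0.17 and *Ccne2* in one with -0.15, beside their own values of -0.25 and -0.19. With the length correction *Ccne1* was at 0.22 (adjusted p = 0.058) and *Ccne2* at -0.13 (adjusted p = 0.40). The ratio of *Ccne1* to *Ccne2* itself was not tested.

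**Figure D5:**
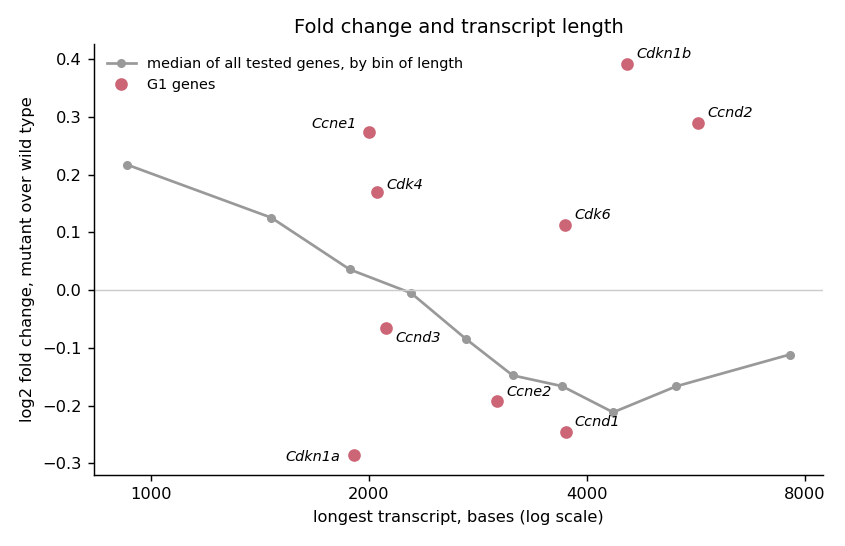
Log2 fold change, mutant over wild type (y axis), of the 9 tested genes (red) against the length of the longest transcript in bases (x axis, log scale), with the median of all tested genes per bin of length in grey, placed at its median length. *Ccnd2* and *Cdkn1b* lie farthest above the grey line and *Cdkn1a* farthest below it.

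The 3 tested genes whose log2 CPM followed that of *Ccnd2* most closely over the 6 libraries were *Gadd45a* (Pearson r = 0.999), *Dnajb14* (0.994) and *Fnip1* (0.994). The points share library and genotype, and the values are a description. *Gadd45a* had a log2 fold change of 0.49 (adjusted p = 0.0288), *Dnajb14* of 0.52 (0.0437) and *Fnip1* of 0.72 (0.0055).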

How the data were processed

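Each library was made from 500 EpCAM-positive cells with the SMARTer v4.0 kit (15 PCR cycles). The authors mapped reads to mm9 with STAR 2.5.2b, counted unique reads in genes by featureCounts 1.5.1 and deposited raw counts, 1 table per library. Their own test was DESeq2 1.18.1. Strand setting, litter and sex were not given in the sources used here.

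Counts were tested with edgeR 4.0.16 (R 4.3.3, TMM, filterByExpr, quasi-likelihood F-test) over 3 mutant and 3 wild type libraries without covariates, with Benjamini-Hochberg adjustment over 12501 genes. Calls needed 3 things: adjusted p under 0.01, log2 fold change of 0.5 or more in size, and mean level of 50 or more normalized counts, in place of the study's own minimum level. The code was tested on simulated data. Lengths, positions and overlaps came from GENCODE vM1 (mm9), near copies from BLAST+ 2.17.0 and promoters from RefSeq (GRCm38.p6). RPKM used the longest transcript.

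The 10 genes and the lists were chosen with earlier results of these data known. Other genes named were fixed regulators, the called genes of each list (or the one with the smallest p) and the 3 genes most like *Ccnd2*. *Ccnh*, *Cks1b*, *Gmnn*, *Pcna*, *Mcm3*, *Mcm5*, *Rbl2*, *Mki67*, *Wee1*, *Ccnf*, *Ddx3y*, *Xist* and the single markers were named after their values were seen. Replicates were labelled biological. The main fit used no block. Deviations of same-numbered libraries had correlations of 0.0097, -0.0449 and -0.0179. With 3 libraries per group, these values cannot show whether the numbers pair libraries. Alternatives were DESeq2 1.42.0, other scalings and filters, a loess length correction (span 0.5), a replicate block, other thresholds and each library left out.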

Additional observations from a re-analysis of the deposited data

How the results depend on the processing

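The count of the 10 genes called stayed at 0 under every alternative except with no minimum fold change, which gave 1. The count past an adjusted p of 0.01, 1 at first, was 2 with DESeq2 and 0 to 2 with each library left out (0 without wild type library 1 or mutant library 1, 2 or 3, and 2 without wild type library 3). *Ccnd2* passed in 7 of 13 alternatives (log2 fold change 0.18 to 0.39). The direction of *Ccnd3* reversed without wild type library 2 (0.021), with -0.12 as the lowest value when libraries were left out, and that of *Cdk6* without mutant library 3 (-0.074), with 0.28 as the highest. Over all genes, 348 were called higher and 729 lower. The higher count was 200 with library size as the only scaling, where higher calls were 17.3% of all calls against 32.3%. It was 85 (284 lower) at an absolute log2 fold change of 1, 902 with no minimum and 128 (30 lower) at a mean RPKM of 50. With each library left out it was 260 to 516, and the lower count 405 to 867, with 405 without wild type library 1, 406 without wild type library 2 and 463 without mutant library 2. Depth limits *Cdkn1b*, *Cdkn2c* and *Cdkn2a*.

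The labels number the libraries 1 to 3 in each group, but whether the numbers pair them is not known. With the replicate number as a block, 0 of the 9 tested genes passed an adjusted p of 0.01 (*Ccnd2* 0.0140), *Cdkn2b* had 0.0126, and 339 genes were called higher and 691 lower. Higher and lower at that adjusted p were then 0 and 2 of the other G1 regulators and 3 and 1 of the E2F targets. Without that block, 1 of the 9 tested genes passed. The other G1 regulators then had 2 higher and 3 lower, and the E2F targets 3 and 3.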
